A study of Mus musculus with 9 samples.

Results

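The hearts of TPTN-treated mice were compared with control hearts, gene by gene, on 3 TPTN and 3 Control RNA-seq libraries out of the 9 in the series. The genes described are those with a mean of at least 0.5 FPKM (fragments counted relative to transcript length and to library size) over the 9 libraries, which kept 12500 of the 29237 genes. All libraries came from the heart of wild-type C57BL/6 mice aged 8 to 12 weeks. The third group, DOX, is the doxorubicin model of dilated cardiomyopathy, also with 3 libraries, and it shared the fit, so that all groups give 1 estimate of spread. The labels do not spell out TPTN, its dose or its timing, nor whether the TPTN mice also received doxorubicin, so an effect of TPTN and of any doxorubicin given with it cannot be told apart here. Nothing states that the replicates are separate animals, so p-values here speak only to the spread among these libraries, which may be technical.

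Glucocorticoids enter cells and bind the glucocorticoid receptor, a transcription factor that then raises a set of target genes in heart as in other tissues, among them the chaperone partner Fkbp5, the metabolic regulator Klf15 and the clock gene Per1. The circadian clock is a loop in which Bmal1 and Clock drive the Period, Cryptochrome and Rev-erb genes, whose proteins feed back on the loop. Apelin and its receptor Aplnr, and the VEGF receptor Kdr, act in the endothelium of vessels, where they take part in vessel growth and tone.

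The deposited values give no read counts, so the depth of each library is unknown. The libraries carried the transcripts of working myocardium. In Control replicates 1, 2 and 3 the alpha myosin heavy chain Myh6 stood at 2270, 2440 and 2290 FPKM, and in TPTN replicates 1, 2 and 3 at 2550, 2340 and 2690 FPKM. Actc1, Tnnt2, Tnni3, Myl2 and Ryr2 were also present in all 9 libraries. Mitochondrially encoded genes took 49.8% to 50.9% of the summed FPKM in Control, 48.1% to 48.7% in TPTN and 44.7% to 46.2% in DOX. Small noncoding RNAs summed to 644 FPKM in Control replicate 3 and 930 FPKM in TPTN replicate 1, against 126 to 435 FPKM in the other 7 libraries. Those 2 libraries stand apart in this respect, and counts without both are given with the counts of called genes. Atrial myocyte markers summed to 2660 FPKM in DOX replicate 1, against 69.8 to 310 FPKM in all other libraries. That library enters the comparison only through the shared spread, and without it 61 genes rose and 74 fell in limma. Because the heart was sampled whole, fewer cells of a type and less RNA per cell cannot be told apart.

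With TPTN 42 genes rose and 48 fell at a limma adjusted p under 0.05, which is 0.336% and 0.384% of the 12500 tested genes and 0.72% together. The rising genes gained 0.34 to 1.07 on the log2(FPKM + 1) scale, with a median of 0.60, and 39 of them are protein coding. The falling genes had log2 changes of -0.36 to -2.01, with a median of -0.68, and 46 of them are protein coding. Only 2 of the rising and 8 of the falling genes had a log2 change of size 1 or more. The median over all tested genes was 0.04. At an unadjusted p under 0.05, 1127 genes (9.02%) were higher and 515 (4.12%) lower. This excess of higher genes depended on the scaling. The numbers were 804 and 867 under median-ratio scaling, and 849 and 817 under quantile normalization. They were 858 and 707 with mitochondrial genes and copies left out of the sum, but 1590 and 404 with the copies kept in. All 3 TPTN libraries lay above all 3 Control libraries for 1903 genes (15.2%) and below them for 754 (6.03%).

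**Figure D1:**
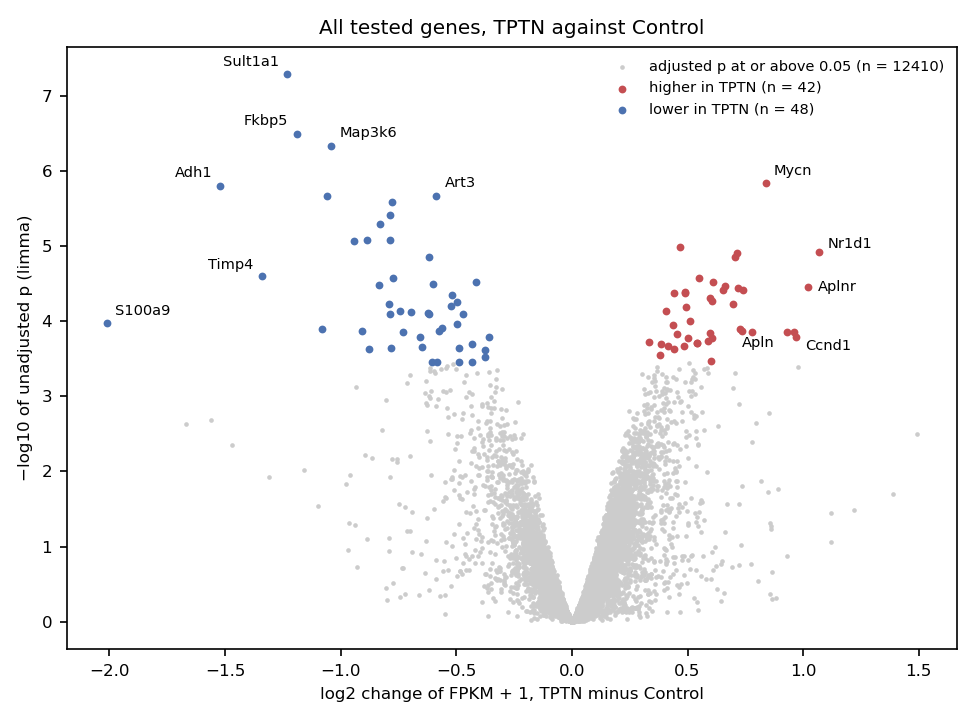
Each point is a tested gene, with the log2 change of TPTN minus Control on the horizontal axis and the unadjusted limma p on a log10 axis. Genes past the adjusted threshold are coloured, 42 to the right and 48 to the left, and Sult1a1, Fkbp5, Adh1 and Map3k6 are among the highest points.

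Most calls were lost in at least 1 fit that left out a library. Without TPTN replicate 1, 2 and 3 the calls lost were 61, 65 and 71. They were 13, 58 and 60 without Control replicate 1, 2 and 3, and 2, 21 and 23 without DOX replicate 1, 2 and 3. Each such fit also rests on fewer libraries, so loss of power and the part of the library left out cannot be told apart. Of the 90 genes, 16 passed the threshold in all 9 fits that each left out 1 library: Adh1, Art3, Car4, Fkbp5, Fam107a, Klf15, Ifi205, Gm9727, Lrg1, Lcn2, Map3k6, Nr1d1, Mycn, Xdh, Sult1a1 and Sesn1. With 1 library left out, the rising count ranged from 4, without TPTN replicate 3, to 85, without Control replicate 1. The falling count ranged from 14, without TPTN replicate 1, to 74, without DOX replicate 1. Without both Control replicate 3 and TPTN replicate 1, 0 genes passed in limma in either direction, with 968 higher and 350 lower at an unadjusted p under 0.05. The smallest adjusted p in that fit was 0.0507, shared by Sult1a1, Fkbp5 and Map3k6. With no filter on low values only 1 gene rose and 5 fell, and with values rescaled to the sum without mitochondrial genes 90 rose and 55 fell, so that 62.1% of calls were higher in place of 46.7%. None of the 90 genes changed sign in any fit that was run. For all 90 the TPTN and Control libraries did not overlap, so leaving out a library could not turn a sign. For genes described below that are not among the 16, the libraries whose removal ended the call are named. With the 6 Control and TPTN libraries alone, 28 genes rose and 41 fell in limma, and 36 of the 90 calls were lost. Among the calls lost were those of Apln, Bcl2l1, Bhlhe40, Cebpd, Col15a1, Glul, Got1, Herpud1, Inka2 and Mcm3. Those of Ms4a6d, Neat1, Pcdhgc3, Per1, Raver1, Tuba1b and Xirp1 were lost as well.

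**Figure D2:**
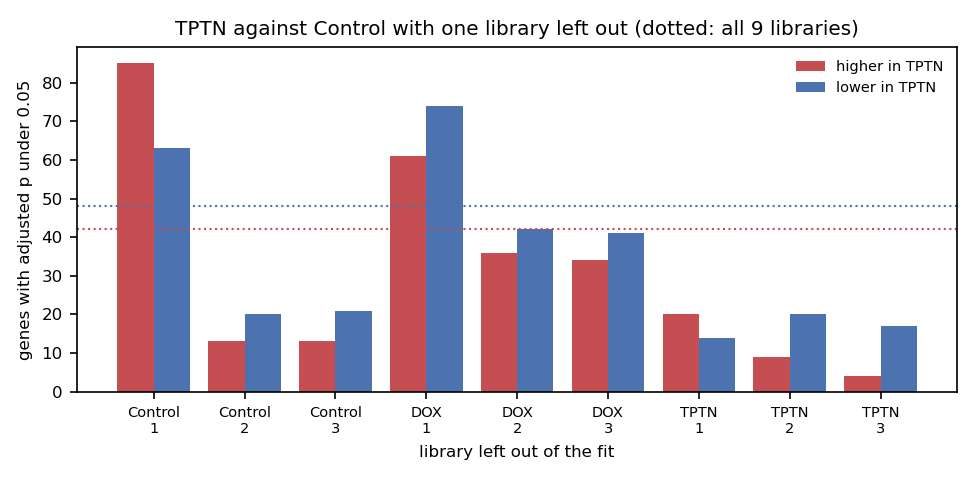
Bars give the number of genes past the adjusted threshold, higher and lower in TPTN than in Control, with each library left out in turn. Dotted lines give the counts with all 9 libraries. The count with all libraries is 42 higher and 48 lower, and the rising count is lowest, at 4, without TPTN replicate 3.

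A group of glucocorticoid receptor targets, Fkbp5, Klf15, Per1 and Sult1a1 among them, fell in the TPTN hearts. Of 27 genes on the list of the receptor and its targets, 25 were tested, and 11 fell while 0 rose in limma, against 0.384% of all tested genes that fell. At an unadjusted p under 0.05, 18 of the 25 were lower and 0 higher, against 4.12% and 9.02% of all tested genes. All 3 TPTN libraries lay below all 3 Control libraries for 16 of the 25, against 6.03% of all tested genes, and above them for 1. The median log2 change of the tested members was -0.78, beside 0.04 over all tested genes. The list was drawn up with earlier results of these libraries known, so its count is no independent evidence of its direction, and Sult1a1, Per1, Cdkn1a, Fkbp5 and Fam107a had been named in those results. Of the other 20 tested members 6 fell, with a median of -0.64, beside -0.78 for all 25. The number of the 25 called lower was 7 without Control replicate 2, 6 without Control replicate 3, and 5, 5 and 7 without TPTN replicates 1, 2 and 3. Without Control replicate 3 and TPTN replicate 1 together it was 0, and with no filter on low values it was 2. On the 6 Control and TPTN libraries alone it was 8.

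Of the 11 falling members 10 have an upstream window. In 3 of the 10 a window holds the core of a glucocorticoid receptor site, against 4.28% of the tested genes with a window. In 3 others it holds the E-box of the clock, against 10%. The windows of 5 are shown to let these letters be seen in place; the match in Fam107a lies in 2 overlapping windows, which are not shown. They are the 250 bases before a RefSeq transcription start, on GRCm38.p6, written 5′ to 3′ on the gene's strand, with the matching letters in capitals. For Fkbp5 the window is chr17:28486150-28486399 on the minus strand and the E-box CACGTG begins 169 bases before the start. For Per1 it is chr11:69098699-69098948 on the plus strand and the E-box begins 166 bases before the start. For Klf15 it is chr6:90462326-90462575 on the plus strand, with E-boxes 228 and 172 bases before the start. For Glul, glutamine synthetase, it is chr1:153899679-153899928 on the plus strand, and the receptor core ACANNNTGT begins 25 bases before the start. For Lcn2, lipocalin 2, it is chr2:32387740-32387989 on the minus strand, with the core 152 bases before the start.
Fkbp5: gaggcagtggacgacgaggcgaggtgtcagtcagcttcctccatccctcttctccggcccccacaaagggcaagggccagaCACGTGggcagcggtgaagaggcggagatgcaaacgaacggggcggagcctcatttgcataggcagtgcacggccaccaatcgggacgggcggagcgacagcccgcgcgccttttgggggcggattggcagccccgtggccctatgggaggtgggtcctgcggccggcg
Per1: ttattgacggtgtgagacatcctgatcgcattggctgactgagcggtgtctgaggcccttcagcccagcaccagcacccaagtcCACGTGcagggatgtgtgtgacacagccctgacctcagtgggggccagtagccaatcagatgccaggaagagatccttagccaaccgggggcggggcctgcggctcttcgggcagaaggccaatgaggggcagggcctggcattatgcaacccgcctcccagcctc
Klf15: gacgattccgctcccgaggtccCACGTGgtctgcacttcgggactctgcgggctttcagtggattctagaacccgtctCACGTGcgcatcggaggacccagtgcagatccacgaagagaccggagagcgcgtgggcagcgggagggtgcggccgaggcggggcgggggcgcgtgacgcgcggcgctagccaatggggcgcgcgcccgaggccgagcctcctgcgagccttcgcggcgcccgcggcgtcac
Glul: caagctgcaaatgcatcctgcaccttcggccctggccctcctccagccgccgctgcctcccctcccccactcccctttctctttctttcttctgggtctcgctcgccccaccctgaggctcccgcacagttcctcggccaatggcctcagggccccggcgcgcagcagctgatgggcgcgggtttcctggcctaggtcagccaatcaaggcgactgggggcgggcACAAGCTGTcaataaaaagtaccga
Lcn2: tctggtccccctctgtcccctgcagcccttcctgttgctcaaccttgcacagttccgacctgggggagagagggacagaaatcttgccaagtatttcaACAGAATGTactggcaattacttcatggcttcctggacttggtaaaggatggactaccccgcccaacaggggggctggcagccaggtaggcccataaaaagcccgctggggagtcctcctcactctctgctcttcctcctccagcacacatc

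Both motifs read the same on either strand. Of the 11 falling members 10 matched an entry in the promoter table, all but Cebpd. The core ACANNNTGT was present in 3 of the 10 (Fam107a, Lcn2 and Glul), against 4.28% of the 8912 tested genes with an entry and 5.84% of all 32851 promoters. The E-box CACGTG was present in 3 (Fkbp5, Per1 and Klf15), against 10% of the tested genes and 6.02% of all promoters. The D-box TTATGTAA, the site of the clock output factors Dbp and Nfil3, was present in 0 of the 10 windows, against 0.527% and 0.819%. A match describes the letters in the window and says nothing of binding.

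Sult1a1, a sulfotransferase that conjugates phenols, had the smallest p of all tested genes. Its Control libraries stood at 14.6, 19.1 and 16.4 FPKM, its TPTN libraries at 6.24, 6.91 and 6.45, and its DOX libraries at 20.4, 20.4 and 18.9. The TPTN values were close together and far below both other groups, with means of 16.7 ± 2.3 in Control and 6.53 ± 0.346 in TPTN (SD, n = 3). The log2 change from Control was -1.23 (SE 0.09, limma adjusted p = 0.000647), and against DOX it was -1.47 (adjusted p = 0.000101). The 2 comparisons share the TPTN libraries. Sult1a1 (ENSMUSG00000030711) lies at chr7:126672865-126676432 on the minus strand of GRCm38.

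Fkbp5 encodes an immunophilin that lowers the receptor's affinity for hormone and is itself a target of the receptor. It read 2.94, 4.44 and 3.31 FPKM in the Control hearts against 1.03, 0.941 and 0.971 in the TPTN hearts, with the DOX hearts at 2.31, 2.21 and 2.23. The 3 groups did not overlap, with Control the highest and TPTN the lowest. The change from Control to TPTN was -1.19 (SE 0.11, limma adjusted p = 0.00192) and from DOX to TPTN -0.71 (adjusted p = 0.014). Its gene (ENSMUSG00000024222) spans chr17:28399094-28517527 on the minus strand.

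Klf15 is a Krüppel-like factor of amino acid and lipid metabolism in the heart. It stood at 11.3, 11.3 and 12.9 FPKM in Control and 6.16, 6.46 and 5.3 in TPTN, a change of -0.88 (SE 0.11, limma adjusted p = 0.00819). Fam107a, an actin-associated protein raised by glucocorticoids, was low throughout, at 2.17, 1.53 and 2.0 FPKM in Control and 0.454, 0.415 and 0.294 in TPTN. The DOX libraries of Fam107a lay between, at 1.0, 1.2 and 0.687 FPKM. Its change from Control to TPTN was -1.06 (SE 0.11, limma adjusted p = 0.00383), and from Control to DOX -0.57 (adjusted p = 0.0329). In both genes every TPTN library was below every Control library and the call held with each library left out in turn.

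Per1, the Period gene most directly induced by glucocorticoids, stood at 4.63, 4.99 and 5.34 FPKM in the 3 Control libraries, 1.72, 2.11 and 3.1 in the 3 TPTN libraries and 7.54, 6.13 and 5.17 in the 3 DOX libraries. TPTN was thus the lowest group, and its replicate 3 was the nearest to Control. The change from Control was -0.88 (SE 0.16, limma adjusted p = 0.0358), and against DOX -1.15 (adjusted p = 0.0134). Per1 missed the threshold without Control replicate 1, 2 or 3, DOX replicate 2, or TPTN replicate 1 or 2, with adjusted p-values from 0.0577 to 0.135.

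Glul, which makes glutamine from glutamate and ammonia, was the most abundant falling member. Its Control values were 78.2, 113 and 94.8 FPKM and its TPTN values 56.4, 51.8 and 55.9, a change of -0.77 (SE 0.11, limma adjusted p = 0.0161). The Control libraries were more spread than the TPTN libraries, and the groups did not overlap. Without Control replicate 3 the adjusted p was 0.056, and without TPTN replicate 1, 2 or 3 it was 0.0528, 0.0683 or 0.0623.

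The CCAAT/enhancer-binding factors Cebpb and Cebpd are transcription factors of the acute-phase response. Cebpb read 12.2, 9.06 and 11.6 FPKM in Control against 5.37, 5.49 and 6.9 in TPTN, a change of -0.79 (SE 0.12, limma adjusted p = 0.019). Cebpd was at 3.43, 2.27 and 2.36 FPKM against 0.83, 1.25 and 1.32, a change of -0.78 (SE 0.14, limma adjusted p = 0.0351). Both were separated from Control in every library. Cebpb missed the threshold without Control replicate 3 (0.0718), TPTN replicate 1 (0.0789) or TPTN replicate 2 (0.0832). Cebpd missed it without any single TPTN replicate, without Control replicate 2 or 3, and without DOX replicate 3, with adjusted p-values from 0.0633 to 0.106.

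Pik3r1, the regulatory subunit of phosphoinositide 3-kinase, stood at 10, 13.3 and 11.6 FPKM in Control and 7.05, 6.47 and 7.61 in TPTN. Its change of -0.65 (SE 0.12, limma adjusted p = 0.0351) was lost without Control replicate 2 or 3, DOX replicate 2, or any single TPTN replicate, with adjusted p-values from 0.0522 to 0.135. Lcn2, a secreted iron-siderophore binder that neutrophils also make, was at 1.51, 2.14 and 1.44 FPKM in Control and 0.302, 0.583 and 0.317 in TPTN. Its change was -0.94 (SE 0.12, limma adjusted p = 0.00819).

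The remaining 14 tested members did not pass. The receptor gene Nr3c1 itself stood at 7.03, 7.0 and 7.28 FPKM in Control and 7.3, 9.16 and 8.24 in TPTN, a difference of 0.18 (limma adjusted p = 0.461) and with no TPTN library below a Control library. Zbtb16, a zinc finger factor with a large response to glucocorticoids in many tissues, differed by -1.67 (adjusted p = 0.113), and Ddit4, an inhibitor of mTOR signalling, by -1.47 (adjusted p = 0.149). The metallothioneins Mt1 and Mt2 differed by -0.94 (adjusted p = 0.0667) and -1.31 (adjusted p = 0.219). Tsc22d3, which encodes the leucine zipper protein GILZ, differed by -0.63 (adjusted p = 0.128). Sgk1, Klf9 and Dusp1, textbook targets as well, differed by -0.21, -0.23 and 0.24, with adjusted p-values of 0.64, 0.283 and 0.731. Hif3a and Tat were under the FPKM minimum and were not tested.

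**Figure D3:**
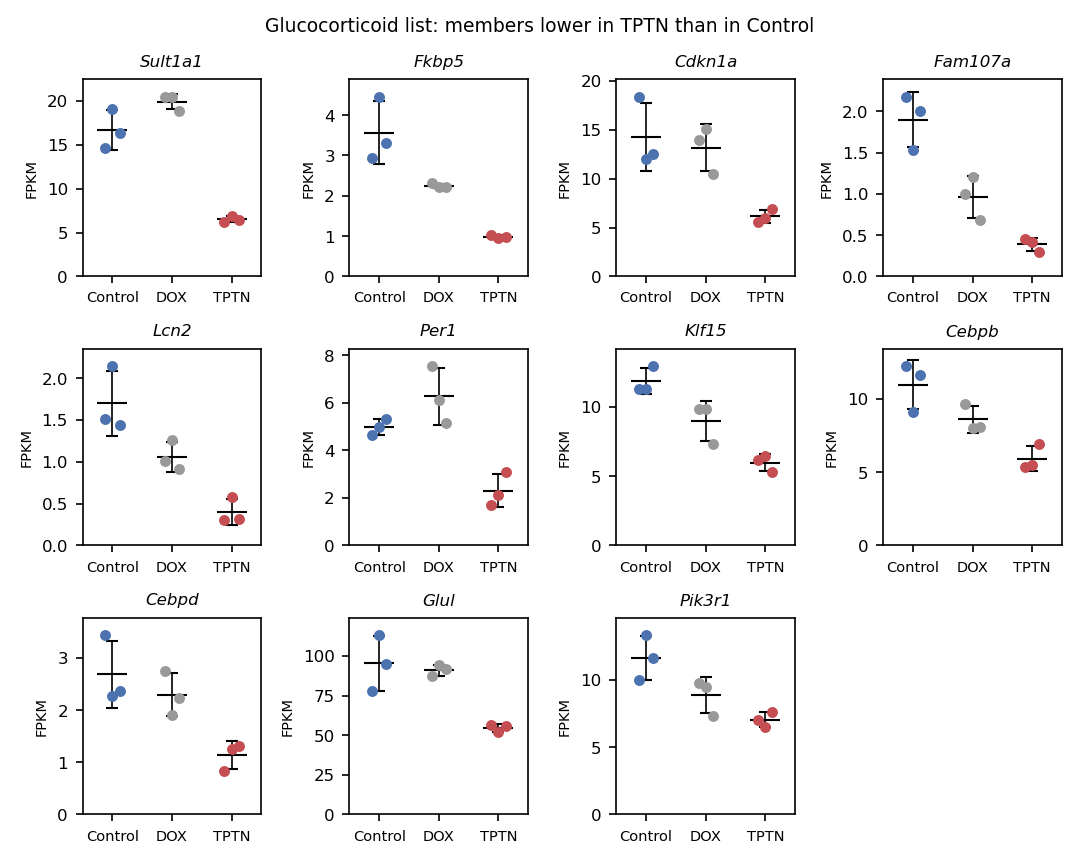
FPKM of the 11 falling members of the glucocorticoid list in each library of Control, DOX and TPTN, with bars for the mean and SD of 3 libraries. In every panel the 3 TPTN points lie below the 3 Control points. In Fkbp5 and Fam107a the DOX points, 2.21 to 2.31 and 0.687 to 1.2, lie between them.

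In the core clock 1 of 15 tested genes rose and 1 fell, the latter being Per1, against 0.336% and 0.384% of all tested genes, and the median change was 0.02. By the unadjusted p 1 was higher and 4 lower, against 9.02% and 4.12%, and all TPTN libraries lay below all Control libraries for 4, against 6.03%. Nr1d1, which encodes the repressor Rev-erb alpha, had the largest rise among the 42. Nr1d1 stood at 7.29, 6.72 and 7.56 FPKM for Control, 14.2, 19.7 and 15.0 for TPTN and 10.9, 10.3 and 14.2 for DOX. All TPTN libraries were above all Control libraries, and DOX replicate 3 had the same value as TPTN replicate 1. The change from Control was 1.07 (SE 0.13, limma adjusted p = 0.00969), and Nr1d1 (ENSMUSG00000020889) lies at chr11:98767932-98775333. Per2 differed by -0.35 (adjusted p = 0.128), which did not pass.

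Among 10 tested clock output genes 1 rose, against 0.336% of all tested genes. This was Bhlhe40, a repressor that competes for E-boxes, with 4.91, 3.59 and 4.56 FPKM in Control and 7.65, 6.57 and 9.41 in TPTN. The change was 0.73 (SE 0.12, limma adjusted p = 0.0285), lost without Control replicate 2 or 3 or TPTN replicate 1 or 3, with adjusted p-values from 0.0735 to 0.091. The DOX libraries of Bhlhe40, at 6.06, 5.83 and 6.58 FPKM, were also above all Control libraries. Its change from DOX to TPTN was 0.3 (limma adjusted p = 0.201). Dbp, the output factor that binds the D-box, differed by 0.86 with an adjusted p of 0.392, which did not pass. The hour at which hearts were taken is not given, and its part in the clock genes was not tested.

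Apelin and its receptor both rose. Of 24 tested angiogenic ligands and receptors 3 rose (Aplnr, Apln and Kdr) and 0 fell in limma, against 0.336% of all tested genes that rose. At an unadjusted p under 0.05, 11 were higher and 1 lower, against 9.02% and 4.12% of all tested genes. All 3 TPTN libraries were above all 3 Control libraries for 10 members, against 15.2% of all tested genes, and below them for 3, against 6.03%, and the median was 0.15. Without Control replicate 2, or without TPTN replicate 3, 0 of the 24 passed. Without TPTN replicate 2 the count was 1.

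Aplnr, the G protein-coupled receptor for apelin, stood at 5.61, 4.54 and 5.88 FPKM in the Control hearts against 10.5, 14.5 and 11.0 in the TPTN hearts, with the DOX hearts at 3.83, 5.26 and 5.43. Every TPTN library was well above every library of the other groups. The change from Control was 1.02 (SE 0.14, limma adjusted p = 0.0161) and from DOX 1.15 (adjusted p = 0.0085). The call against Control was lost without Control replicate 2 (0.0537) or TPTN replicate 3 (0.0602). Aplnr (ENSMUSG00000044338) lies at chr2:85136225-85139923 on the plus strand.

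The peptide gene Apln stood at 2.94, 2.05 and 3.14 FPKM in the 3 Control libraries, 4.76, 6.25 and 7.25 in the 3 TPTN libraries and 2.34, 3.2 and 2.66 in the 3 DOX libraries. Its change from Control was 0.93 (SE 0.15, limma adjusted p = 0.0285), again with no overlap. The adjusted p lay between 0.0582 and 0.113 without Control replicate 2 or 3, DOX replicate 3, or TPTN replicate 2 or 3. Apln (ENSMUSG00000037010) is on the X chromosome at chrX:48025146-48034853, minus strand.

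Kdr, the main signalling receptor for VEGF on endothelial cells, was at 14.1, 13.0 and 16.2 FPKM for Control, 21.0, 25.9 and 23.4 for TPTN and 15.2, 16.7 and 17.3 for DOX. Its rise was 0.66 (SE 0.1, limma adjusted p = 0.0161), lost without Control replicate 2 (0.0537), TPTN replicate 2 (0.0683) or TPTN replicate 3 (0.0637). Its ligand Vegfa differed by 0.35 (adjusted p = 0.253). Sox7, an endothelial transcription factor, stood at 3.43, 2.99 and 3.98 FPKM in Control against 5.5, 5.63 and 6.25 in TPTN, a change of 0.61 (SE 0.09, limma adjusted p = 0.0161). Sox7 missed the threshold without TPTN replicate 2 (0.0553) or 3 (0.0642).

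The endothelial marker list as a whole was not higher. Of its 18 tested genes Kdr alone rose, against 0.336% of all tested genes, with 0 lower in limma, and the median was 0.02. There were 2 higher and 3 lower at an unadjusted p under 0.05, against 9.02% and 4.12% of all tested genes. The summed FPKM of those markers was 508, 445 and 433 in Control and 387, 426 and 410 in TPTN. The summed level in TPTN was thus below that of each Control library while Aplnr, Apln, Kdr and Sox7 were above it in each. The part of endothelial content in these 4 genes was not tested.

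Fibrillar and basement membrane collagens were among the rising genes. Of 41 tested extracellular matrix genes, out of 42 listed, 2 rose and 1 fell, against 0.336% and 0.384% of all tested genes, and the median change was 0.20. At an unadjusted p under 0.05, 18 were higher and 2 lower, against 9.02% and 4.12% of all tested genes. All TPTN libraries were above all Control libraries for 24 of the 41 and below for 2, against 15.2% and 6.03% of all tested genes.

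Col3a1, the type III collagen of the cardiac interstitium, stood at 12.7, 9.44 and 10.2 FPKM in the Control hearts against 17.1, 20.4 and 18.1 in the TPTN hearts, with the DOX hearts at 10.9, 13.5 and 10. TPTN did not overlap either other group, and the change from Control was 0.74 (SE 0.12, limma adjusted p = 0.0285). Col15a1, a collagen at the outer face of basement membranes, was at 7.38, 5.06 and 7.01 FPKM in Control against 10.4, 11.6 and 13.3 in TPTN, a change of 0.78 (SE 0.13, limma adjusted p = 0.0285). Both calls were lost without Control replicate 2, Control replicate 3, or TPTN replicate 1, 2 or 3. The adjusted p then ran from 0.0722 to 0.109 for Col3a1 and from 0.0537 to 0.109 for Col15a1. Col1a1, the main chain of type I collagen, differed by 0.56 (adjusted p = 0.0667), and Postn, a matrix protein of activated fibroblasts, by 0.23 (adjusted p = 0.43).

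Timp4, the tissue inhibitor of metalloproteinases most typical of heart, fell. It stood at 8.09, 7.23 and 10.2 FPKM in the 3 Control libraries, 2.7, 2.6 and 2.84 in the 3 TPTN libraries and 5.66, 10.1 and 7.09 in the 3 DOX libraries. The TPTN libraries had an SD of 0.123 FPKM and lay under all 6 others. The change from Control was -1.34 (SE 0.17, limma adjusted p = 0.0161), lost without TPTN replicate 1 (0.0551), 2 (0.0683) or 3 (0.0623). Timp4 (ENSMUSG00000030317) lies at chr6:115241892-115252205 on the minus strand. Fibroblast markers summed to 399, 381 and 425 FPKM in Control and 370, 420 and 391 in TPTN, which overlap, and 0 of 12 tested passed in limma. Of these 1 was higher and 2 lower at an unadjusted p under 0.05, against 9.02% and 4.12% of all tested genes. Smooth muscle and pericyte markers summed to 228, 171 and 196 FPKM against 210, 253 and 224, with a median change of 0.23. In limma 0 of 12 passed the threshold and 2 were higher at an unadjusted p under 0.05, against 9.02% of all tested genes. Their part in the matrix result was not tested.

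In the cell cycle list 18 of 27 genes were tested, 2 rose and 0 fell in limma, against 0.336% of all tested genes that rose, and the median was 0.11. At an unadjusted p under 0.05, 6 were higher and 0 lower, against 9.02% and 4.12% of all tested genes. Ccnd1, the cyclin that drives exit from G1, stood at 7.67, 5.39 and 8.56 FPKM for Control, 14.3, 15.6 and 14.6 for TPTN and 5.5, 8.35 and 6.78 for DOX. The TPTN libraries were close together and above all others, with a change of 0.97 (SE 0.16, limma adjusted p = 0.0304). The call was lost without Control replicate 2, DOX replicate 3, or TPTN replicate 1, 2 or 3, at adjusted p-values from 0.0508 to 0.121. Mcm3, a subunit of the replicative helicase, was low at 0.82, 0.635 and 0.64 FPKM in Control and 1.16, 1.27 and 1.34 in TPTN. Its change of 0.41 (SE 0.08, limma adjusted p = 0.0347) was lost in 7 of the 9 fits, all but those without Control replicate 1 or DOX replicate 1, up to 0.152. Mycn, a growth-promoting transcription factor of the developing heart, rose from 0.43, 0.281 and 0.333 FPKM in Control to 1.43, 1.32 and 1.47 in TPTN, with DOX at 0.428, 0.442 and 0.697. Its change was 0.84 (SE 0.09, limma adjusted p = 0.00383).

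Of 22 tested p53 targets 3 fell and 0 rose in limma, against 0.384% of all tested genes that fell, while the median was 0.03, beside 0.04 over all genes. By the unadjusted p, 6 were higher and 4 lower, against 9.02% and 4.12%. Cdkn1a, the p21 inhibitor of cyclin-dependent kinases, stood at 18.3, 12.0 and 12.5 FPKM in the Control hearts against 5.57, 5.98 and 6.89 in the TPTN hearts, with the DOX hearts at 13.9, 15.1 and 10.5. Its change was -1.08 (SE 0.17, limma adjusted p = 0.0285), and it is also on the glucocorticoid list. The call was lost without Control replicate 2 (0.0537) or 3 (0.0657), or TPTN replicate 1 (0.0969), 2 (0.106) or 3 (0.0702). Sesn1, a stress-inducible inhibitor of mTOR signalling, fell from 20, 24.7 and 24.6 FPKM to 14.8, 14.1 and 15.1, a change of -0.62 (SE 0.08, limma adjusted p = 0.00969). The death receptor Fas went from 6.18, 6.21 and 5.04 FPKM to 3.13, 3.8 and 3.51, a change of -0.60 (SE 0.09, limma adjusted p = 0.0161). Its adjusted p was 0.0537, 0.0551 or 0.0623 without Control replicate 2, TPTN replicate 1 or TPTN replicate 3.

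Detoxifying and alcohol-metabolising enzymes held 3 falling genes of 17 tested, and 0 rose in limma, against 0.384% of all tested genes that fell, with a median of -0.11. By the unadjusted p, 6 were lower and 0 higher, against 4.12% and 9.02%. Besides Sult1a1 these were Adh1 and Fmo2. Adh1, the class I alcohol dehydrogenase, which also oxidises retinol, stood at 5.69, 6.55 and 5.99 FPKM in the 3 Control libraries, 1.81, 1.02 and 1.65 in the 3 TPTN libraries and 7.32, 6.15 and 4.73 in the 3 DOX libraries. No TPTN library came near the other 6, and the change from Control was -1.52 (SE 0.15, limma adjusted p = 0.00383). Adh1 (ENSMUSG00000074207) lies at chr3:138260991-138290698 on the plus strand. Fmo2, a flavin-containing monooxygenase, fell from 6.36, 7.69 and 7.15 FPKM to 3.61, 3.59 and 3.32, a change of -0.84 (SE 0.12, limma adjusted p = 0.0161). Fmo2 missed the threshold without Control replicate 2 or 3 or any single TPTN replicate, with adjusted p-values from 0.0537 to 0.0683. Xdh, xanthine oxidoreductase, which ends purine breakdown and can reduce anthracyclines, went from 11.6, 14.7 and 13.5 FPKM to 7.32, 7.0 and 7.55. Its change of -0.78 (SE 0.09) had a limma adjusted p of 0.00408.

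**Figure D4:**
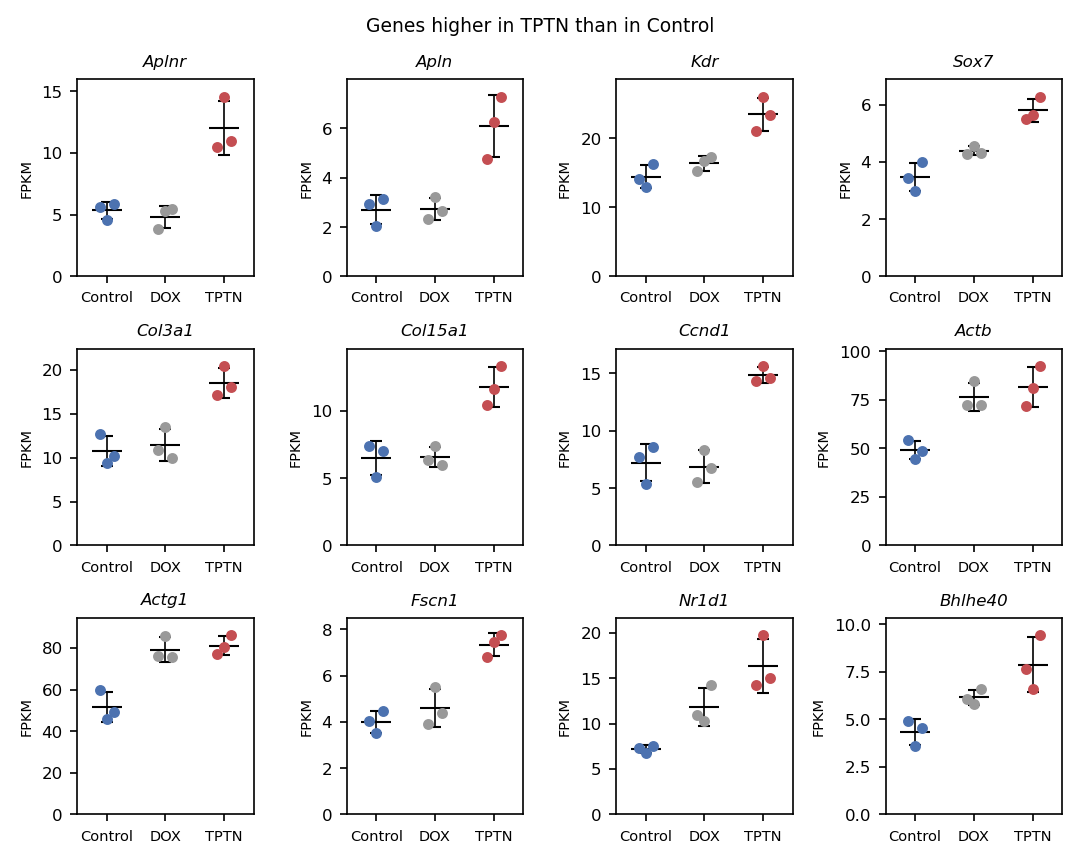
FPKM of 12 rising genes in each library of Control, DOX and TPTN, with bars for the mean and SD of 3 libraries. TPTN lies above Control in every panel; in Actb and Actg1 the DOX points overlap the TPTN points, and in Aplnr the TPTN points, 10.5 to 14.5, lie above all 6 others.

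Neutrophil genes held the largest fall among the genes past the threshold. Of 9 markers 3 were tested, and 2 of them, S100a9 and Lcn2, fell, against 0.384% of all tested genes. None rose in limma or at an unadjusted p under 0.05. S100a9, a subunit of calprotectin, stood at 3.54, 5.59 and 2.29 FPKM for Control, 0.0779, 0.267 and 0.112 for TPTN and 0.83, 2.3 and 1.51 for DOX. TPTN was near 0 in each library, and the change was -2.01 (SE 0.28, limma adjusted p = 0.0264). The call was lost without Control replicate 1 (0.0658), DOX replicate 3 (0.0574), or TPTN replicate 1 (0.0927), 2 (0.0831) or 3 (0.112). Its partner S100a8 was at 1.61, 3.83 and 1.33 FPKM in Control and is listed at 0.146, 0 and 0 in TPTN, with an adjusted p of 0.108. All 9 markers together summed to 8.06, 14.4 and 6.38 FPKM in Control and 0.862, 1.12 and 0.857 in TPTN. The macrophage markers summed to 190, 149 and 163 FPKM against 147, 163 and 142, which overlap, and 0 of 13 tested passed in limma. Of these 2 were higher and 1 lower at an unadjusted p under 0.05, against 9.02% and 4.12% of all tested genes. Whether fewer neutrophils had a part in the lower Lcn2 was not tested.

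Several falling genes with small p-values belong to no list or to one in which nothing else passed. Map3k6, a stress-activated kinase, went from 2.97, 2.81 and 3.05 FPKM in Control to 1.0, 0.694 and 1.1 in TPTN, with DOX between at 1.9, 1.98 and 1.55. Its change was -1.04 (SE 0.1, limma adjusted p = 0.00192). Lrg1, a leucine-rich glycoprotein of TGF-beta signalling in vessels, went from 22.2, 26.7 and 20.1 FPKM to 11.9, 12.1 and 13.4, a change of -0.83 (SE 0.1, limma adjusted p = 0.00635). Car4, the membrane-bound carbonic anhydrase of capillaries, went from 10.1, 10.9 and 8.95 FPKM to 5.32, 5.07 and 5.67, a change of -0.79 (SE 0.09, limma adjusted p = 0.00532). Neither Lrg1 nor Car4 overlapped between the groups, and their DOX libraries (22.6 to 25.5 and 9.02 to 10.9 FPKM) overlapped the Control range.

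Art3, a membrane-anchored protein of the ADP-ribosyltransferase family, was more abundant, at 59.3, 61.5 and 60.2 FPKM in Control and 40.9, 39.6 and 39.2 in TPTN. Both groups were tight, and the change was -0.59 (SE 0.06, limma adjusted p = 0.00383). Ifi205, of the interferon-inducible p200 family, went from 3.11, 2.71 and 3.28 FPKM to 1.33, 1.37 and 1.3, a change of -0.79 (SE 0.1, limma adjusted p = 0.00819). Its family has close copies in tandem on chromosome 1, so reads may have been shared between them.

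The nuclear RNA Neat1, the scaffold of paraspeckles, stood at 34.5, 46.0 and 42.0 FPKM in the Control hearts against 22.0, 25.6 and 26.6 in the TPTN hearts, with the DOX hearts at 20.9, 22.6 and 25.0. Both other groups were below Control, and the TPTN change was -0.70 (SE 0.11, limma adjusted p = 0.021). Neat1 missed the threshold without Control replicate 2 or 3 or any single TPTN replicate, with adjusted p-values from 0.0623 to 0.0793. Herpud1, of the degradation machinery of the endoplasmic reticulum, went from 44.9, 65.3 and 57.6 FPKM to 33.5, 35.5 and 35.2, a change of -0.66 (SE 0.11, limma adjusted p = 0.0304). This call was lost without Control replicate 2 or 3, DOX replicate 3, or any single TPTN replicate, with adjusted p-values from 0.0592 to 0.109. Bcl2l1, which encodes the survival protein Bcl-xL, went from 5.77, 6.58 and 5.74 FPKM to 3.58, 3.93 and 4.57, while DOX stood at 6.73, 7.66 and 7.23. Its change was -0.49 (SE 0.09, limma adjusted p = 0.0351), lost in 7 of the 9 fits, all but those without Control replicate 1 or DOX replicate 1, up to 0.137.

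Cytoplasmic actins rose. Actb stood at 54.2, 44.7 and 48.7 FPKM in the 3 Control libraries, 71.7, 81.1 and 92.1 in the 3 TPTN libraries and 72.1, 84.7 and 72.3 in the 3 DOX libraries. Actg1 stood at 59.6, 46.0 and 49.0 FPKM for Control, 77.1, 80.3 and 86.0 for TPTN and 75.9, 85.9 and 75.6 for DOX. TPTN and DOX overlapped in both genes and lay above Control. The changes from Control were 0.72 (SE 0.11) and 0.65 (SE 0.1), each with a limma adjusted p of 0.0161. Against DOX they were 0.09 (adjusted p = 0.669) and 0.04 (adjusted p = 0.87). Without Control replicate 2 or 3 or TPTN replicate 2 or 3 the adjusted p against Control lay between 0.0537 and 0.0702 for both. Actins have many near-identical copies, so how reads were shared between them is uncertain.

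Fscn1, which bundles actin filaments, rose from 4.02, 3.5 and 4.48 FPKM to 6.79, 7.47 and 7.74, a change of 0.74 (SE 0.11, limma adjusted p = 0.0161). Fscn1 missed the threshold without Control replicate 2 (0.0537) or TPTN replicate 2 (0.0683) or 3 (0.0702). Inka2, an inhibitor of the kinase Pak4, rose from 5.39, 3.27 and 3.9 FPKM to 8.26, 10.3 and 8.42, a change of 0.96 (SE 0.16, limma adjusted p = 0.0285). Inka2 missed it without Control replicate 2 or 3 or any single TPTN replicate, with adjusted p-values from 0.0736 to 0.106. Neither gene had a TPTN library within the Control range.

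Pcdhgc3 and Raver1 were the remaining 2 of the 15 largest rises under the naming rule, which leaves out identifier-like symbols such as Gm12715 and Gm9727. Pcdhgc3, a protocadherin whose transcripts share constant exons with its cluster, rose from 3.72, 3.62 and 3.01 FPKM to 5.15, 6.26 and 7.34, a change of 0.70 (SE 0.11, limma adjusted p = 0.019). Without Control replicate 2 or 3 or TPTN replicate 2 or 3 its adjusted p lay between 0.0537 and 0.076. Raver1, a splicing cofactor, rose from 4.13, 4.22 and 2.85 FPKM to 5.91, 6.31 and 6.2, a change of 0.60 (SE 0.11, limma adjusted p = 0.0306). Without DOX replicate 2 or 3 or any single TPTN replicate its adjusted p lay between 0.0522 and 0.121. DOX was also above Control in both, at 5.1 to 5.5 FPKM for Pcdhgc3 and 5.5 to 5.86 FPKM for Raver1.

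Myocyte genes held few changes. Gata4, a transcription factor of cardiac development and growth, rose from 17.0, 16.9 and 15.6 FPKM to 22.5, 23.6 and 21.8, a change of 0.44 (SE 0.07, limma adjusted p = 0.0275). It was the 1 of 17 tested cardiac transcription factors to pass, against 0.336% of all tested genes that rose. The DOX libraries of Gata4, at 22.2, 18.8 and 21.0 FPKM, were also above all Control libraries. Its change from DOX to TPTN was 0.13 (limma adjusted p = 0.358). Xirp1, an actin-binding protein of the intercalated disc, rose from 26.4, 24.2 and 20.6 FPKM to 33.8, 31.9 and 34.9, a change of 0.49 (SE 0.09, limma adjusted p = 0.0347). Pde4b, a phosphodiesterase that breaks down cAMP, rose from 1.54, 1.44 and 1.61 FPKM to 2.44, 2.69 and 2.53, a change of 0.49 (SE 0.07, limma adjusted p = 0.0161). For Gata4 and Pde4b the call was lost without Control replicate 2 or 3 or any single TPTN replicate, with adjusted p-values from 0.0708 to 0.106 and from 0.0528 to 0.0683. Xirp1 lost it in 7 of the 9 fits, all but those without Control replicate 1 or DOX replicate 1, up to 0.149.

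Of a panel of 17 genes that mark cardiomyopathy, Col3a1 rose and Cdkn1a fell, against 0.336% and 0.384% of all tested genes, and the median was 0.03. The natriuretic peptide gene Nppa ranged from 51.2 to 147 FPKM in Control and from 52.6 to 120 in TPTN, a difference of 0.03 (SE 0.91, adjusted p = 0.994). Nppb stood at 224, 84.0 and 236 FPKM in Control and 271, 324 and 188 in TPTN, a difference of 0.63 (adjusted p = 0.752). These ranges overlap widely, and the spread within groups exceeds the difference. Myh7, the beta myosin heavy chain, stood at 61.7, 77.1 and 68.5 FPKM against 72.0, 65.6 and 69.8. Its difference of 0.01 (adjusted p = 0.987) turned to -0.05 under median-ratio scaling and to as low as -0.07, without Control replicate 1, with a library left out. Atp2a2, the calcium pump of the sarcoplasmic reticulum, differed by 0.07 (adjusted p = 0.712), turning to -0.13 under quantile normalization. Acta1, Ankrd1 and Ccn2, genes of the load response, differed by -0.36, -0.39 and -0.31, with adjusted p-values of 0.778, 0.494 and 0.274.

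Of the 56 gene lists 19 held a gene past the threshold, 35 held none and 2 had no tested member. Among 26 tested sarcomere and Z-disc genes 0 passed in limma, with a median of 0.05 and 2 higher at an unadjusted p under 0.05. Among 18 calcium handling genes 0 passed, with a median of 0.04 and 3 higher by the unadjusted p. For 44 ribosomal protein genes the counts were 0 and 2 higher, with a median of 0.04. For 48 nuclear respiratory chain genes they were 0 and 2 lower, with a median of -0.04. All 4 medians lay near the 0.04 of all tested genes. Over all tested genes 9.02% were higher and 4.12% lower at an unadjusted p under 0.05. All 13 mitochondrially encoded protein genes were lower on average in TPTN, by a median of -0.15, and 0 passed in limma. Of these 10 had all TPTN libraries below all Control libraries, against 6.03% of all tested genes, and 8 were lower at an unadjusted p under 0.05, against 4.12%. That median was -0.20 under median-ratio scaling. It was -0.18 with mitochondrial genes and copies left out of the sum, and -0.11 with the copies kept in. Under quantile normalization it became 0.00, but that method gives every library the same set of values. It holds the highest-ranked genes nearly equal, so it cannot show a shift in them. mt-Nd4l had the smallest p of them, at 10000, 10700 and 9890 FPKM in Control and 8890, 8860 and 8320 in TPTN (adjusted p = 0.0815).

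Metabolic lists showed small differences in opposite directions. Of 26 tested genes of fatty acid uptake and oxidation 25 had a negative difference and the median was -0.10. In limma 0 passed the threshold and 4 were lower at an unadjusted p under 0.05, against 4.12% of all tested genes. The fatty acid transporter Cd36 stood at 385, 404 and 358 FPKM in Control and 297, 325 and 323 in TPTN, a difference of -0.28 (adjusted p = 0.113). Of 21 glycolysis and glucose uptake genes 0 passed, with a median of 0.12. By the unadjusted p 8 were higher and 1 lower, against 9.02% and 4.12% of all tested genes. Hk2, the insulin-responsive hexokinase, stood at 26.6, 27.2 and 30.4 FPKM in Control and 33.1, 33.8 and 35.9 in TPTN, a difference of 0.28 (adjusted p = 0.0943). Neither Cd36 nor Hk2 overlapped between the groups.

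Interferon, MHC and heat shock lists had medians above that of all genes without a gene past the threshold. The 28 interferon-stimulated genes had a median of 0.19, the 12 genes of MHC antigen presentation 0.20 and the 24 heat shock genes and chaperones 0.19. The median level of these lists had an SD between libraries of a group of 0.21, 0.17 and 0.12, in that order. In each of the 3 lists 0 genes passed in limma and 3 were higher at an unadjusted p under 0.05, against 9.02% of all tested genes. Without Control replicate 3 and TPTN replicate 1 the first 2 of these medians were 0.44 and 0.43 and the last was 0.14. Bnip3, a mitophagy receptor on the autophagy and hypoxia lists, had the smallest p of those lists, at 62.5, 78.9 and 76.2 FPKM in Control and 40.9, 47.7 and 52.8 in TPTN (difference -0.61, adjusted p = 0.0537). Red cell genes, which track residual blood, summed to 945, 449 and 396 FPKM in Control and 603, 542 and 447 in TPTN.

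**Figure D5:**
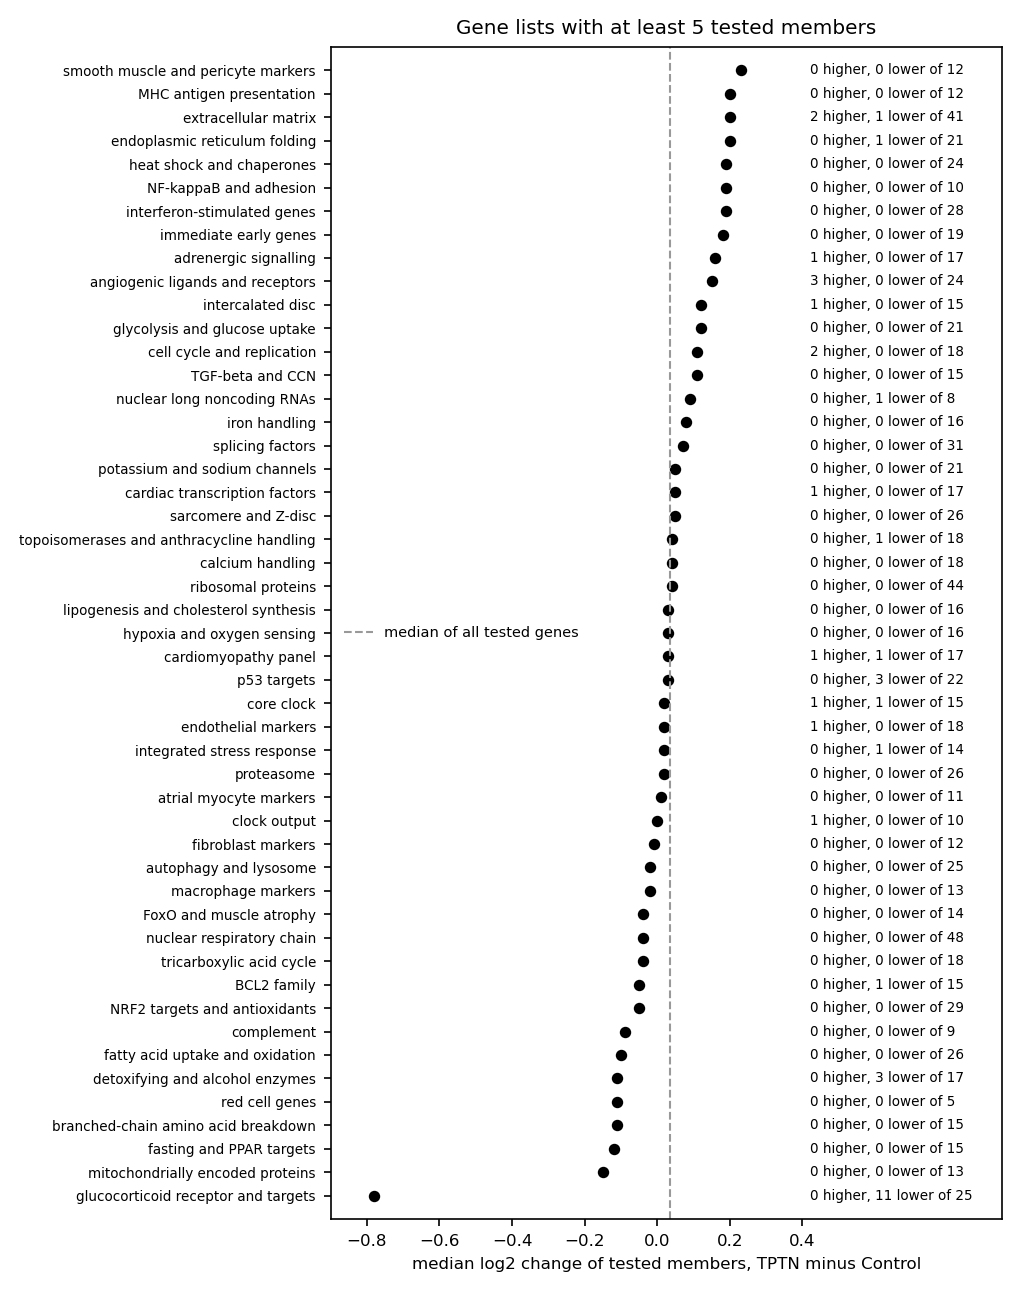
Points give the median log2 change, TPTN minus Control, of the tested members of each of the 49 gene lists with at least 5 tested members, with the number past the threshold in each direction beside it. The glucocorticoid list sits apart at -0.78 with 11 of 25 lower, while the other medians lie between -0.15 and 0.23 around the dashed line at the all-gene median of 0.04.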

How the data were processed

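RNA was measured in whole mouse hearts of 3 Control, 3 DOX and 3 TPTN libraries. Strand-marked (dUTP) libraries were made from oligo(dT)-purified, Trizol-extracted RNA and read as pairs, per the labels' protocols. The authors deposited FPKM values for 29237 genes in a single file. The submitters' processing notes name cutadapt 1.9, HISAT2 2.0.4, StringTie 1.3.4d, DESeq2, edgeR and GRCm38, without their roles. The p, q and significance columns of the deposited table were not used, and 0 columns had no sample. Neither counts nor depth are given. Comparing low values gave no usable depth, since only 9.01% to 11.2% of values came out as whole reads within 0.05, so no count test was run.

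Groups were taken from the sample labels. Values were tested as log2(FPKM + 1), a pseudocount of 1, in the 12500 genes with a mean of at least 0.5 FPKM over the 9 libraries. A fold change on this scale understates that of low genes. limma 3.58.1 (R 4.3.3, data.table version 1.17.8; trend and robust estimation) fitted 1 mean per group to the 9 libraries with 6 residual degrees of freedom, and the contrast was TPTN minus Control, with Benjamini-Hochberg adjustment over all 12500 genes and a threshold of 0.05. The procedure was tested on simulated data. Tables and figures used Python 3.11.15, pandas 2.3.3, numpy 2.4.6 and matplotlib 3.10.9.

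The members, the gene lists and the tests were chosen with earlier results of these data known. The rule for named genes took, past the threshold and without identifier-like symbols, the 15 largest rises and 15 largest falls with a group mean of at least 2 FPKM, the 10 smallest p-values, the list members that passed (or the 2 smallest p where none did), and the whole cardiomyopathy panel. Members of the glucocorticoid, clock and other lists that did not pass but are given with values were chosen after their values were seen, as textbook members. The deviations of same-numbered Control and TPTN libraries from their group means had correlations of -0.26, -0.02 and -0.20. The highest of any pair was 0.40, for Control replicate 3 with TPTN replicate 1. With 3 libraries a group this check cannot exclude pairing by number, so the main fit took the libraries as unpaired. Positions are GRCm38 from GENCODE M21, which held the identifiers of 29154 of the 29237 genes. Promoters are from RefSeq on GRCm38.p6. Ribosomal proteins, actins, mitochondrial genes and others with near-identical copies are uncertain, since reads can be shared. Alternatives were the 6 libraries alone, no robust estimation, a replicate block, pseudocounts of 0.1 and 5, no filter, a minimum of 1 FPKM, a minimum log2 size of 1, median-ratio scaling, quantile normalization, sums without mitochondrial genes with or without their 7 nuclear copies, named symbols only, and each library left out. The fit without Control replicate 3 and TPTN replicate 1 was chosen after seeing the data.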

Additional observations from a re-analysis of the deposited data

How the results depend on the processing

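None of the 90 genes past the threshold changed sign in any alternative. For the fits with a library left out, the lack of overlap between the groups fixed this in advance. The counts moved. Against 42 higher and 48 lower, the higher count was 24 with the replicate block, 1 with no filter on low values, 2 with a minimum log2 size of 1, 90 when values were rescaled to the sum without mitochondrial genes and 93 over named symbols only. The lower count was 5 with no filter, 8 with the minimum size and 76 over named symbols only. With the replicate block the lower count was 38. In the labels the libraries of a block have only their number in common. The rescaling without mitochondrial genes made 62.1% of calls higher, against 46.7%. The 6 Control and TPTN libraries alone gave 28 higher and 41 lower genes. Leaving out 1 library gave 4 to 85 higher and 14 to 74 lower genes, and leaving out both Control replicate 3 and TPTN replicate 1 gave 0 and 0. The no-filter fit and the symbols-only fit change the number of genes tested; the cause of the other shifts was not tested.

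Among genes named but not past the threshold, some differences turned sign. Without Control replicate 1, Alas2 became 0.11, Hbb-bs 0.25 and Myh7 -0.07. Under quantile normalization Atp2a2 became -0.13 and Myh6 -0.08. Under median-ratio scaling Myh7 became -0.05, Nppa -0.02 and Tnni3 -0.03. With the sum without mitochondrial genes and copies Myh7 became -0.03, Nppa -0.00 and Tnni3 -0.01. Myh7 was -0.02 without TPTN replicate 1 and -0.00 without TPTN replicate 3. Nppa was -0.37 without Control replicate 2, -0.16 without TPTN replicate 1 and -0.17 without TPTN replicate 2. Tnni3 was -0.02 without Control replicate 2. Without Control replicate 3 and TPTN replicate 1, Myh7 was -0.03 and Kcnj3 0.00. Over the fits without 1 library or those 2, the lowest and highest values were -0.28 and 0.11 for Alas2, -0.45 and 0.25 for Hbb-bs, -0.11 and 0.00 for Kcnj3, -0.07 and 0.09 for Myh7, -0.37 and 0.42 for Nppa, and -0.02 and 0.07 for Tnni3. With 3 libraries a group and no counts, differences in genes of low FPKM are the least precise.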

Other observations

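Of the 90 genes past the threshold 57 are on none of the gene lists, and the following were chosen after their values were seen. Lbh, a transcription cofactor of limb and heart development, was among the most abundant rising genes, at 108, 112 and 105 FPKM in the Control hearts against 146, 150 and 154 in the TPTN hearts, with the DOX hearts at 123, 135 and 126. Its groups did not overlap, and its change was 0.47 (SE 0.06, limma adjusted p = 0.00931), lost without TPTN replicate 3 (0.0534). Tuba1b, an alpha tubulin, stood at 53.6, 38.1 and 51.1 FPKM in the 3 Control libraries, 67.7, 75.0 and 73.0 in the 3 TPTN libraries and 74.6, 80.1 and 70.5 in the 3 DOX libraries, so that both other groups lay above Control. Its change was 0.60 (SE 0.11, limma adjusted p = 0.0485), lost in 8 of the 9 fits with 1 library left out, all but that without Control replicate 1, up to 0.173. Fgf16, a growth factor of the heart, stood at 5.05, 4.52 and 4.39 FPKM for Control, 6.59, 6.98 and 8.16 for TPTN and 8.44, 6.76 and 7.09 for DOX, again with DOX and TPTN above Control. Its change was 0.54 (SE 0.1, limma adjusted p = 0.0337), lost without Control replicate 2 or 3, DOX replicate 3, or any single TPTN replicate, with adjusted p-values from 0.0551 to 0.132.

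Got1, the cytosolic aspartate aminotransferase of the malate-aspartate shuttle, was the most abundant falling gene of those outside the naming rule, at 278, 308 and 271 FPKM in the Control hearts against 228, 218 and 221 in the TPTN hearts, with the DOX hearts at 274, 283 and 272. DOX lay with Control and TPTN below both, and the change from Control was -0.36 (SE 0.06, limma adjusted p = 0.0304). Without Control replicate 2 or 3, DOX replicate 2 or 3, or any single TPTN replicate its adjusted p lay between 0.0522 and 0.121. Tgm2, tissue transglutaminase, which crosslinks proteins, stood at 48.7, 48.4 and 45.9 FPKM in Control and 34.5, 34.8 and 37.2 in TPTN, a change of -0.41 (SE 0.06, limma adjusted p = 0.0161). Tgm2 missed the threshold without Control replicate 2 (0.0537) or TPTN replicate 1 (0.0551) or 2 (0.0683). Ms4a4a and Ms4a6d, membrane proteins known from macrophages, had log2 changes of -0.73 and -0.57, each with a limma adjusted p of 0.0285. In DOX Ms4a4a read 0.615, 0.998 and 0.422 FPKM, beside 1.86, 1.42 and 1.44 in Control and 0.429, 0.694 and 0.533 in TPTN. The Ms4a4a call was lost without any single Control or TPTN replicate (0.0597 to 0.108) and that of Ms4a6d without Control replicate 1 or 3 or any single TPTN replicate (0.0515 to 0.117).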
